A study of Mus musculus with 18 samples.

Results

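The genes described here encode the mitochondrial ribosomal proteins of the mouse. They were taken as every row of the deposited coding-sequence count table whose symbol begins with Mrps or Mrpl followed by a digit and that had a count in any library. This gave 77 genes of 20655 rows, 29 named for the small subunit (Mrps) and 48 for the large subunit (Mrpl). All 77 passed the filter on low counts in footprints, in RNA and in the model of both. The rule used names only and no measured value.

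Epidermal basal cells were taken from mouse embryos at E18.5, after an shRNA construct had been delivered to the epidermis in utero at E9.5. The 3 conditions, each with 3 libraries of ribosome footprints and 3 of RNA, were compared with each other. WT shScram was WT with a scrambled shRNA, in a strain that carries a tdTomato and EGFP reporter at the Rosa26 locus. HrasG12V shScram and HrasG12V shEif2b5 were embryos labelled FR-HrasG12V with the scrambled shRNA or with an shRNA against Eif2b5. Strain and genotype therefore cannot be told apart, and no WT group received the Eif2b5 shRNA, so the knockdown was compared within HrasG12V. All cells were separated with dispase and trypsin in the presence of cycloheximide, which halts elongating ribosomes. The genotype of WT shScram footprint library 1 is labelled Rosa26, the other WT libraries WT. Whether libraries within a group derive from different animals is not labelled. The p-values reflect library-to-library spread alone, which may be technical.

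Mitochondria carry their own ribosome, which translates the few proteins encoded by mitochondrial DNA, all of them subunits of the respiratory chain or the ATP synthase. Its RNA comes from mitochondrial DNA, but every one of its proteins is encoded in the nucleus, translated by cytosolic ribosomes and imported. Some of these proteins have counterparts in bacterial ribosomes and others are found in mitochondria alone. A footprint count of such a gene measures its translation in the cytosol and says nothing about the activity of the mitochondrial ribosome. Hras encodes a small GTPase whose G12V form is oncogenic, and Eif2b5 encodes the epsilon subunit of eIF2B, which recharges eIF2 with GTP so that cytosolic ribosomes can start translation.

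Footprint libraries held 3319175 to 4933298 counts and RNA libraries 1771365 to 5505386. Levels are given as CPM, counts scaled to a common library total after trimmed-mean (TMM) normalisation. RNA libraries 1 and 3 of HrasG12V shScram had the most negative relation to base composition. Across 9146 genes, their deviation from the mean of the 9 RNA libraries correlated with coding GC at r = -0.48 and -0.60. In the other 7 it was -0.09 to 0.51, highest in library 3 of HrasG12V shEif2b5. The group's library 2, kept alone when both are left out, had r = 0.07, the fewest RNA counts (1771365) and 388 CPM of Eif2b5. Counts of RNA calls among members that rest on libraries 1 and 3 are given with and without them. For translation efficiency, log2 values are given without them. Over all genes, calls in RNA fell without both from 854 to 47 in HrasG12V shScram against WT shScram and from 1444 to 17 in HrasG12V shEif2b5 against HrasG12V shScram, and values given only with them carry that limit. Eif2b5 RNA was 128 to 143 CPM in HrasG12V shEif2b5 and 127 to 388 CPM in HrasG12V shScram, and its footprints 78.5 to 95.4 and 91.9 to 102 CPM. Neither separated the knockdown from the scrambled libraries (log2 fold change -0.68 ± 0.37 (SE), edgeR adjusted p = 0.257 in RNA; -0.16 ± 0.12, adjusted p = 0.994 in footprints), so these counts do not check the shRNA label. Hras counts (181 to 307 CPM in RNA) cannot show the G12V allele. The 7 basal keratinocyte markers summed to 8570 to 17100 CPM in RNA, and the 6 spinous markers to 34000 to 97900 CPM, so that markers of differentiating cells were abundant beside those of basal cells. In such bulk samples, fewer cells of a type and less RNA per cell cannot be told apart.

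The 77 genes were spread over 17 chromosomes in the mm10 annotation (GENCODE). Their coding sequences were short, with a median of 576 bases (195 to 1326) against 1446 over the 11040 genes tested in RNA with a known length. The median coding GC of 53.2% equalled that of all tested genes, and ran from 41.6% in Mrpl1 to 65.6% in Mrpl34. Head-to-head neighbours were frequent. A protein-coding gene on the opposite strand, starting within 1000 bases, was found for 33 of the 77 (42.9%), for 24 of 48 Mrpl (50%) and for 9 of 29 Mrps (31.0%), against 11.1% of 20345 protein-coding genes in the table. Several partners also act in mitochondria. Mrps12 starts 172 bases from Sars2, the mitochondrial seryl-tRNA synthetase, Mrps27 starts 81 bases from Ptcd2, and Mrpl36 overlaps the complex I gene Ndufs6 at its start (start-to-start distance -29 bases). Mrps11 and Mrpl46, one of each subunit, form such a pair with each other and overlap (start-to-start distance -412 bases). The coding sequences of Mrpl9, Mrps6 and Mrps30 overlap the coding sequence of another gene, and 16 members in all overlap an exon of another gene. As the strand setting of the counting is not stated, values of these members can include reads of their neighbours. Mrpl23, Mrpl48 and Mrps36 have named pseudogenes whose reads can be confused with theirs.

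RefSeq promoter windows (GRCm38.p6, 250 bases before to 50 after the start) were found for 68 members. The promoters were searched for 5 motifs on both strands, and none of the motifs contains another. The NRF1 motif GCATGCGC was in 8 of the 68 (11.8%) against 3.8% of 15995 promoters, the ETS motif CCGGAAGT in 11 (16.2% against 5.7%), and the YY1 motif AAGATGGC in 12 (17.6% against 3.4%). The MYC E-box CACGTG (7.4% against 8.2%) and CCAAT (39.7% against 39.0%) were about as frequent as in all promoters. The median ratio of observed to expected CpG was 0.82 against 0.61. NRF1 motifs were in 7 of 42 Mrpl windows and 1 of 26 Mrps windows. The 250 bases before the start are shown for 3 members on which results below turn, with NRF1, ETS and YY1 matches in capitals. Mrpl22 (chr11:58171414-58171663, + strand) had the lowest RNA fold change of any member in HrasG12V shEif2b5 against HrasG12V shScram, Mrps17 (chr5:129715247-129715496, + strand) had the next lowest, and Mrps22 (chr9:98601680-98601929, - strand) had one of the highest footprint to RNA ratios.
Mrpl22: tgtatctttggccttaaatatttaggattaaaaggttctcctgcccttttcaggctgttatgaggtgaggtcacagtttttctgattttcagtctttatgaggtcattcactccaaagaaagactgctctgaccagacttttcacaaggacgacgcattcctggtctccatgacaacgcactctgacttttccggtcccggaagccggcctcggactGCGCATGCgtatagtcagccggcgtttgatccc
Mrps22: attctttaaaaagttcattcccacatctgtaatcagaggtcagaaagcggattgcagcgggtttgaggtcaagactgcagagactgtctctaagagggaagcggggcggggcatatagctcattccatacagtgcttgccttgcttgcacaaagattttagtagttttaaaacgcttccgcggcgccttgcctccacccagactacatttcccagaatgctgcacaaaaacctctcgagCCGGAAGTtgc
Mrps17: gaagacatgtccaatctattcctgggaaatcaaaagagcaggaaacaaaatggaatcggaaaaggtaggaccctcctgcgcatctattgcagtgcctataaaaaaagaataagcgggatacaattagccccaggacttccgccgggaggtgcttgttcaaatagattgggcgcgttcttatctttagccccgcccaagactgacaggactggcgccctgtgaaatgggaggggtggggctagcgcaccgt
The Mrpl22 window holds an NRF1 match and the Mrps22 window an ETS match near the start. The Mrps17 window holds none of the 3 motifs. Among other members called in RNA below, the Mrpl39 window holds an NRF1 match and the Mrpl27 window an ETS match. The Mrpl52 window holds an ETS match only in the 50 bases after the start. The Mrpl1, Mrpl14, Mrps6 and Mrps30 windows hold none of the 3 motifs. A match is a description of letters and not evidence of binding.

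In WT shScram, footprint levels per kilobase of coding sequence lay mostly within a narrow range. They ran from 30.9 to 397 CPM per kb with a median of 81.3, and 61 of the 77 (79.2%) lay within 2-fold of the median. Cytosolic ribosomal proteins, which are also made for a complex of fixed composition, had a median of 1770 CPM per kb with 65 of 77 (84.4%) within 2-fold, and complex I subunits 289 CPM per kb with 32 of 37 (86.5%). The SD of the log2 level was 0.87, 0.83 and 0.78 in these sets. The 4 highest members were short genes. Mrpl33 had 397 ± 35.0 (SD, n = 3), Mrps21 383 ± 75.8, Mrps14 299 ± 66.2 and Mrps33 296 ± 44.1 CPM per kb, and the ranges of 1 SD overlapped between neighbours in this order. The 4 lowest were Mrps11 (30.9 ± 9.59), Mrps2 (35.1 ± 2.54), Mrpl1 (36.6 ± 5.56) and Mrps5 (37.1 ± 5.54), again with overlapping ranges. Mrpl12, the stalk protein that is present in several copies per ribosome, had 89.8 ± 32 CPM per kb, near the median. Mrpl3, a core protein near the peptidyl transferase centre, had 75.9 ± 16.4, and Mrps12, a protein of the decoding site, had 58.4 ± 7.13. Without division by length, 15 of the 20 highest members were the same genes.

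The Mrps18 genes are 3 paralogs of a bacterial small-subunit protein. In structures of the mammalian ribosome, the Mrps18b and Mrps18c proteins sit in the small subunit and the Mrps18a protein in the large one. Their footprint levels in WT shScram were 217 ± 66.4 CPM per kb for Mrps18c, 62.4 ± 4.40 for Mrps18b and 56.7 ± 15.8 for Mrps18a. Mrps30 (52.7 ± 1.10), also a large-subunit protein despite its name, lay beside the last 2. Mrps36, which is now assigned to the alpha-ketoglutarate dehydrogenase complex rather than the ribosome, had 129 ± 24.8.

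**Figure D1:**
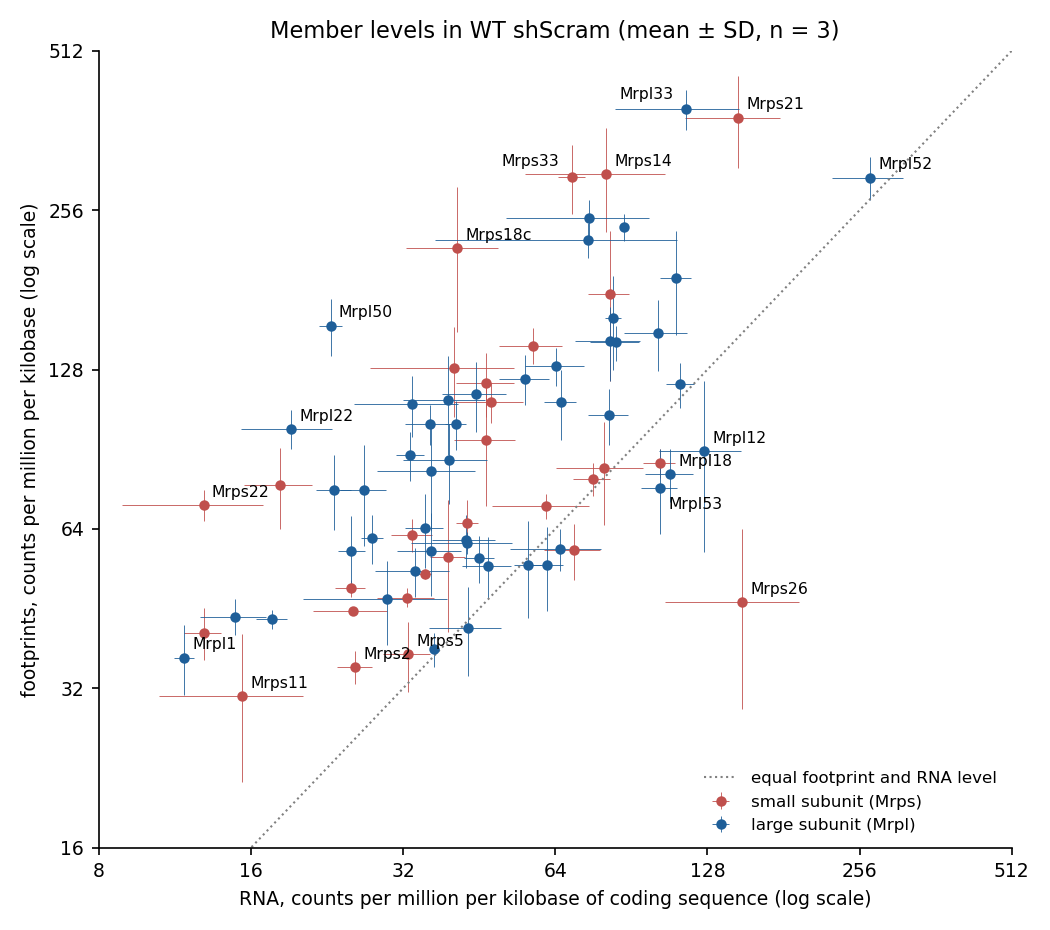
Footprint level against RNA level of the 77 members in WT shScram, both in CPM per kilobase of coding sequence on log scales, as mean ± SD of 3 libraries. Most members lie above the dotted line of equal levels, and Mrps26 lies farthest below it.

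The members carried more footprints for their RNA than most genes. Among genes with a mean of at least 10 CPM in both kinds, the median log2 ratio of footprint CPM to RNA CPM in WT shScram was 0.90 over 75 members (quartiles 0.33 and 1.43), against 0.06 over 8162 genes (quartiles -0.75 and 0.80). The ratio was above 1 in 65 of the 75. Complex I subunits had a median of 1.27 and cytosolic ribosomal proteins -0.58. Both subunits had the same median, 0.90 over 27 Mrps and over 48 Mrpl genes. Footprint and RNA libraries were made by different procedures, so the ratio itself cannot be read, only how it compares between genes. That comparison was not corrected for coding length, which is shorter in members (median 576 against 1446 bases), or for coding GC. Their part in the ratios was not tested. Across members, footprint and RNA levels per kb correlated at r = 0.59 in WT shScram (n = 75 members, which share libraries and length).

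Mrpl50, a protein found in mitochondria alone, had the highest ratio in WT shScram, 6.76 (5.94 to 8.20 over all pairings of a footprint with an RNA library). Its footprints were 84.5, 67.3 and 70.6 CPM and its RNA 11.3, 11.3 and 10.3 CPM. Mrps22 (5.5), Mrps18c (5.30) and Mrpl22 (5.15) followed. The lowest ratios were those of Mrps26 (0.312, range 0.164 to 0.648), Mrpl12 (0.714), Mrpl53 (0.745) and Mrpl18 (0.752). Coding GC was 45.0% to 50.8% in the 4 highest and 53.9% to 64.2% in the 4 lowest. Mrps26 was lowest, with 18.1, 27.0 and 38.8 CPM in footprints and 98.7, 111 and 59.9 CPM in RNA. Its range overlapped that of Mrpl12 (0.374 to 1.16), and in HrasG12V shScram the ratios of Mrps26 and Mrpl12 were 0.562 and 0.569. The order of the members was alike in the 3 conditions, with r = 0.90 between WT shScram and HrasG12V shScram, 0.95 between WT shScram and HrasG12V shEif2b5 and 0.90 between the HrasG12V conditions (n = 75 members). The median ratio was 0.72 in HrasG12V shScram and 0.75 in HrasG12V shEif2b5 on the log2 scale.

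**Figure D2:**
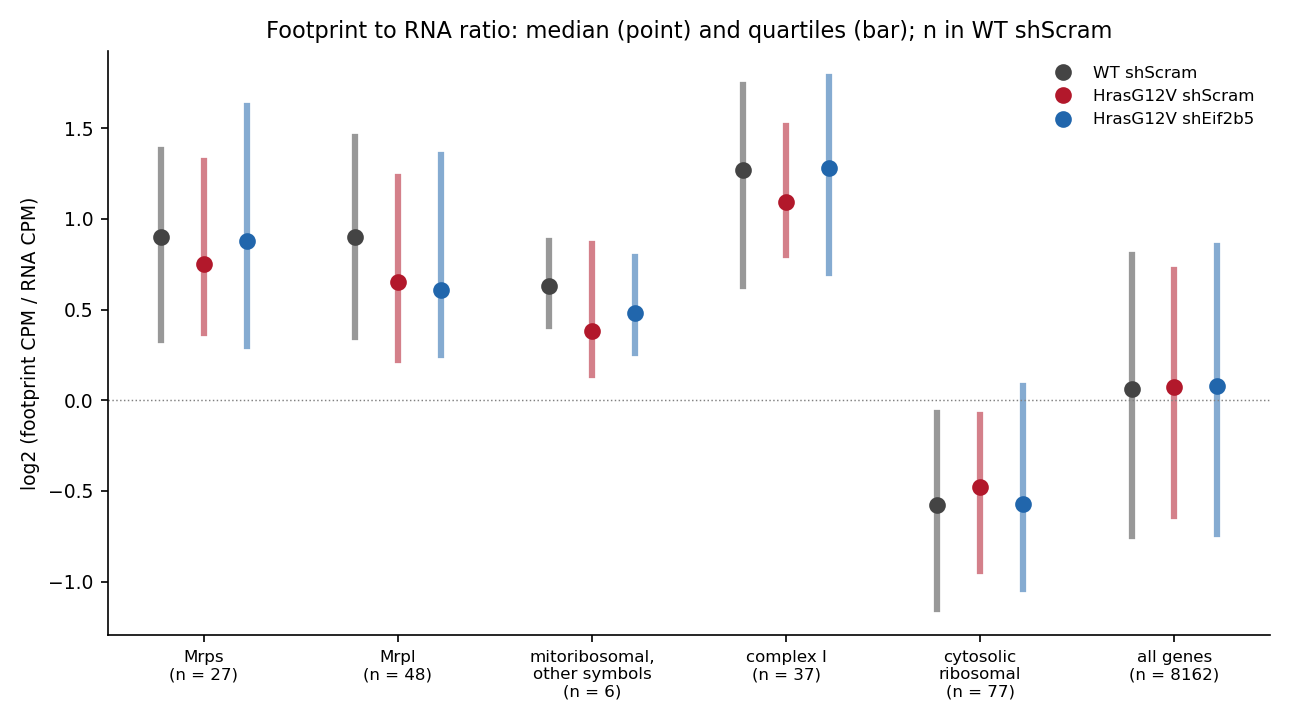
Median (points) and quartiles (bars) of log2 footprint CPM over RNA CPM for members by subunit, for comparator sets and for all genes, in the 3 conditions. Members sit above all genes and below complex I, and cytosolic ribosomal proteins sit below 0 in every condition.

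As a group, members took 0.409% to 0.483% of footprint counts and 0.241% to 0.282% of RNA counts. The RNA shares did not overlap between conditions, at 0.241% to 0.248% in WT shScram, 0.254% to 0.270% in HrasG12V shEif2b5 and 0.272% to 0.282% in HrasG12V shScram. These are shares of the deposited counts, without TMM scaling. In CPM, the RNA of Mrpl genes summed to 1585 to 1597, 1619 to 1807 and 1688 to 1786 in the same order. That of Mrps genes summed to 870.5 to 941.1, 917.9 to 1019 and 905.7 to 1018. With TMM scaling, both sums thus overlapped between the HrasG12V conditions. No test was run on these shares or sums. The summed CPM of Mrpl over that of Mrps genes was 1.54 to 1.85 in footprints and 1.66 to 1.94 in RNA. In footprints this quotient was 1.54 to 1.85 in WT shScram, 1.63 to 1.65 in HrasG12V shScram and 1.59 to 1.70 in HrasG12V shEif2b5, so the WT libraries enclosed the others. At the level of sums, the balance of the subunits was not distinguishable between conditions.

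No mitochondrial ribosomal protein gene passed the test in footprints in any comparison. HrasG12V shScram against WT shScram called 0 of 77 members, against 1.70% of 11448 genes, HrasG12V shEif2b5 against HrasG12V shScram called 0, as did all genes (0%), and HrasG12V shEif2b5 against WT shScram called 0 against 0.970% of genes. DESeq2 also called 0 members in each, where it called 260, 1 and 229 genes in all. At an unadjusted p under 0.05, edgeR gave 11, 1 and 11 members, where 14.3%, 4.53% and 14.4% of all genes were. The median log2 fold changes of the members were 0.02, -0.02 and 0.00 in this order, beside -0.01, 0.00 and -0.01 over all genes. All 77 intervals (95%) lay within 2-fold of no change in all 3 comparisons. The groups did not overlap for 12 members (15.6%) in the first comparison, where 20.3% of all genes did not, for 4 (5.19%) in the second against 11.1%, and for 11 (14.3%) in the last against 16.1%.

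Mrpl40, a large-subunit protein found in mitochondria alone, had the smallest p in footprints. Its CPM were 83.4, 76.9 and 67.1 in WT shScram, 56.4, 48.9 and 57.6 in HrasG12V shScram, and 57.3, 54.4 and 57.4 in HrasG12V shEif2b5. Every WT library was above every HrasG12V library. The log2 fold change of HrasG12V shScram against WT shScram was -0.48 ± 0.13 (SE; edgeR adjusted p = 0.0729), and with offsets for coding length and GC it was -0.57 with an adjusted p of 0.0170. Against WT shScram, HrasG12V shEif2b5 gave -0.42 ± 0.13 (adjusted p = 0.119). Its RNA gave 0.17 ± 0.20 (adjusted p = 0.621) in HrasG12V shScram against WT shScram, with overlapping groups.

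Next in the first comparison were Mrpl54 at -0.47 ± 0.16 (adjusted p = 0.167) and Mrpl39 at 0.39 ± 0.13 (adjusted p = 0.168). Against WT shScram, HrasG12V shEif2b5 gave 0.43 ± 0.14 for Mrps17 (adjusted p = 0.154) and -0.51 ± 0.18 for Mrpl49 (adjusted p = 0.184). Between the HrasG12V conditions, Mrpl24 gave -0.28 ± 0.13, Mrpl32 -0.27 ± 0.14 and Mrps14 -0.23 ± 0.15, each with an adjusted p of 0.994. Mrpl32 encodes the protein that the inner-membrane AAA protease matures before the large subunit assembles. One library decided the count against WT. Without footprint library 3 of WT shScram, 9 members were called in HrasG12V shScram (5 higher, 4 lower) and 7 in HrasG12V shEif2b5 (4 higher, 3 lower). All genes called then rose as well, from 195 to 559 and from 111 to 407. Mrpl39, Mrpl40, Mrpl54, Mrps16, Mrps18c and Mrps26 were in both of these sets, which share the WT libraries.

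**Figure D3:**
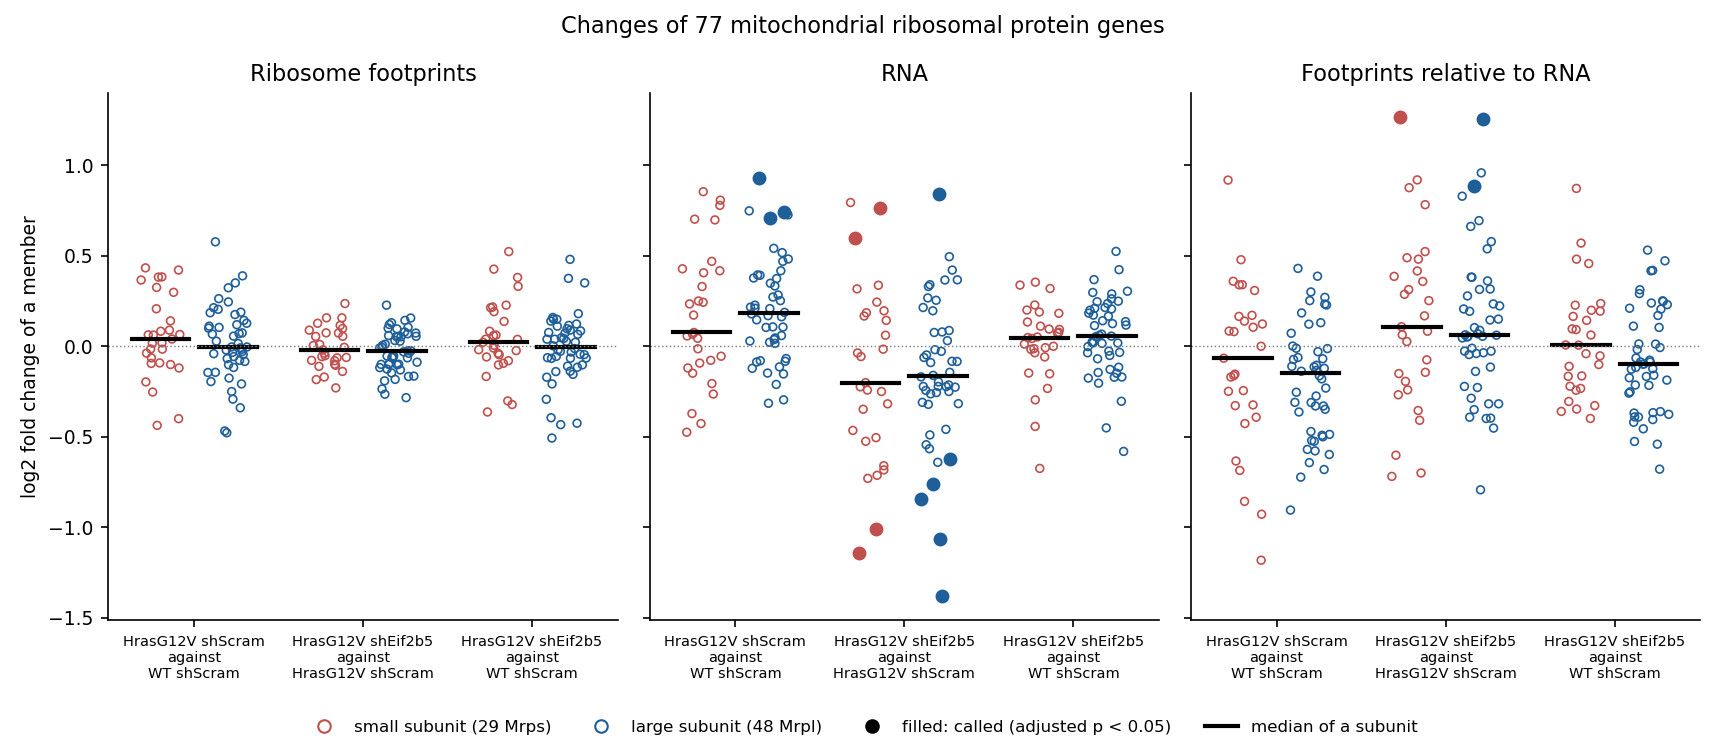
Log2 fold change of each member in 3 comparisons for footprints, RNA and footprints relative to RNA, with Mrps and Mrpl genes side by side, filled points for called members and a bar at each subunit's median. Footprint values stay between -0.51 and 0.58 with no filled point, and RNA values reach -1.38 in HrasG12V shEif2b5 against HrasG12V shScram.

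In RNA, 3 members rose in HrasG12V shScram against WT shScram and none fell. This was 3.90% of the members, against 7.70% of 11096 genes called in either direction and 4.65% called higher. Groups did not overlap for 17 members (22.1%; 14 higher, 3 lower), where 26.1% of genes did not. The direction was uneven, as 55 of 77 members were above 0 (50.8% of all genes were), 37 of 48 Mrpl and 18 of 29 Mrps. The median was 0.17 on the log2 scale, against 0.01 for all genes, and 0.05 with offsets for length and GC.

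Mrpl22, whose protein lines the exit tunnel of the large subunit, had 10.1, 10.9 and 14.6 CPM in WT shScram and 27.3, 20 and 21.6 CPM in HrasG12V shScram. Every HrasG12V shScram library was higher, a log2 fold change of 0.93 ± 0.27 (SE; edgeR adjusted p = 0.0410), or 1.91-fold. Mrpl27, a protein of the peptidyl transferase region, had 17.4, 16.7 and 14.1 CPM against 28.1, 24.4 and 25 CPM. Its groups were also apart, at 0.71 ± 0.20 (adjusted p = 0.0403), but its coding sequence overlaps an exon of Eme1. Mrpl39 had 23.5, 21.8 and 25.5 CPM against 41.2, 38.9 and 38.6 CPM, 0.74 ± 0.19 (adjusted p = 0.0254). Footprints of the 3 genes gave 0.20, 0.24 and 0.39 on the log2 scale, none called.

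The 3 calls depended on single libraries and on the offsets. With offsets for coding length and GC, 0 members were called, while calls over all genes fell from 854 to 410. The adjusted p values of Mrpl22, Mrpl27 and Mrpl39 with offsets were 0.103, 0.0608 and 0.0872. Their log2 fold changes were then 0.74, 0.67 and 0.55. Leaving out any 1 of RNA libraries 1, 2 or 3 of WT shScram, or 1 or 3 of HrasG12V shScram, left 0 calls. Calls over all genes fell as well in these fits, from 854 to 189, 218, 397, 246 and 294. Leaving out library 2 of HrasG12V shScram gave 13 (10 higher, 3 lower), while calls over all genes rose from 854 to 2431. Without libraries 1 and 3 of HrasG12V shScram together, a fit in which the lone library is assumed to vary like the other groups, 0 were called, with Mrpl22 at 0.71, Mrpl27 at 0.63 and Mrpl39 at 0.71.

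HrasG12V shEif2b5 against HrasG12V shScram gave the most calls, 7 members lower and 3 higher. These 10 were 13.0% of the members, the same share as the 13.0% of all genes called. By direction, 7.79% of genes were called lower and 5.23% higher. The groups did not overlap for 22 members (28.6%; 16 lower, 6 higher), again the share of all genes (28.6%). The median of the members was -0.17, against 0.00 for all genes, with 26 of 77 above 0 against 49.5% of genes. This comparison and the one before share the HrasG12V shScram libraries, so their opposite signs for the same genes are not independent.

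The 7 lower members were Mrpl1, Mrpl14, Mrpl22, Mrpl27, Mrpl39, Mrps6 and Mrps17. Mrpl22 fell most. It had 4.81, 11.7 and 10.3 CPM in HrasG12V shEif2b5 against 27.3, 20 and 21.6 CPM, a log2 fold change of -1.38 ± 0.29 (SE; edgeR adjusted p = 0.00792), or 2.61-fold lower. Mrps17, a bacterial-type protein of the small subunit, had 8.88, 12.8 and 16.4 CPM against 26.3, 30.0 and 27.4 CPM (-1.14 ± 0.23, adjusted p = 0.00736). The groups were far apart for both genes, and both were called in each fit that left out 1 library.

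Mrpl1, a protein of the stalk beside the exit site for tRNA, had 8.88, 7.80 and 7.05 CPM against 12.4, 15.5 and 21.8 CPM (-1.06 ± 0.28, adjusted p = 0.0189). Mrpl27 had 15.9, 17 and 12.7 CPM (-0.76 ± 0.21, adjusted p = 0.0248). Mrpl14, at the face where the subunits meet, had 11.1, 16.3 and 13.2 CPM against 17.4, 23.3 and 32.4 CPM (-0.85 ± 0.27, adjusted p = 0.0436). For Mrpl14 the highest knockdown library lay just below the lowest scrambled one. Mrpl39 gave -0.62 ± 0.19 (adjusted p = 0.0396). Mrps6, whose coding sequence overlaps that of Gm49711, gave -1.01 ± 0.32 (adjusted p = 0.0436) from 5.17 to 6.66 CPM against 7.77 to 16.2 CPM.

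The 3 higher members were Mrpl52, Mrps30 and Mrps34. Mrpl52 had 167, 109 and 147 CPM against 71.8, 104 and 63.9 CPM, 0.84 ± 0.20 (SE; edgeR adjusted p = 0.0137). Mrps34, a mitochondria-specific protein of the small subunit, had 80.7, 54.3 and 63.4 CPM against 39.3, 50.5 and 29.6 CPM, 0.77 ± 0.21 (adjusted p = 0.0268). For both, library 2 was the lowest of the knockdown group and the highest of the scrambled group, so the groups were narrowly apart. Mrps30 gave 0.60 ± 0.18 (adjusted p = 0.0342), from 47.9 to 61.1 CPM against 30.5 to 44.2 CPM, and its coding sequence overlaps that of an antisense gene. Exons of Mapk8ip3 overlap that of Mrps34.

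The footprints of these 10 genes did not pass the test. Their footprint log2 fold changes ran from -0.13 (Mrpl22) to 0.13 (Mrpl27). Mrpl22 had 66.4, 66.2 and 60.1 CPM in HrasG12V shEif2b5 and 78.7, 64.5 and 67.7 CPM in HrasG12V shScram, which overlap. Mrps17 had 52.5, 60.7 and 63.4 CPM and 56.9, 52.2 and 52.4 CPM.

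**Figure D4:**
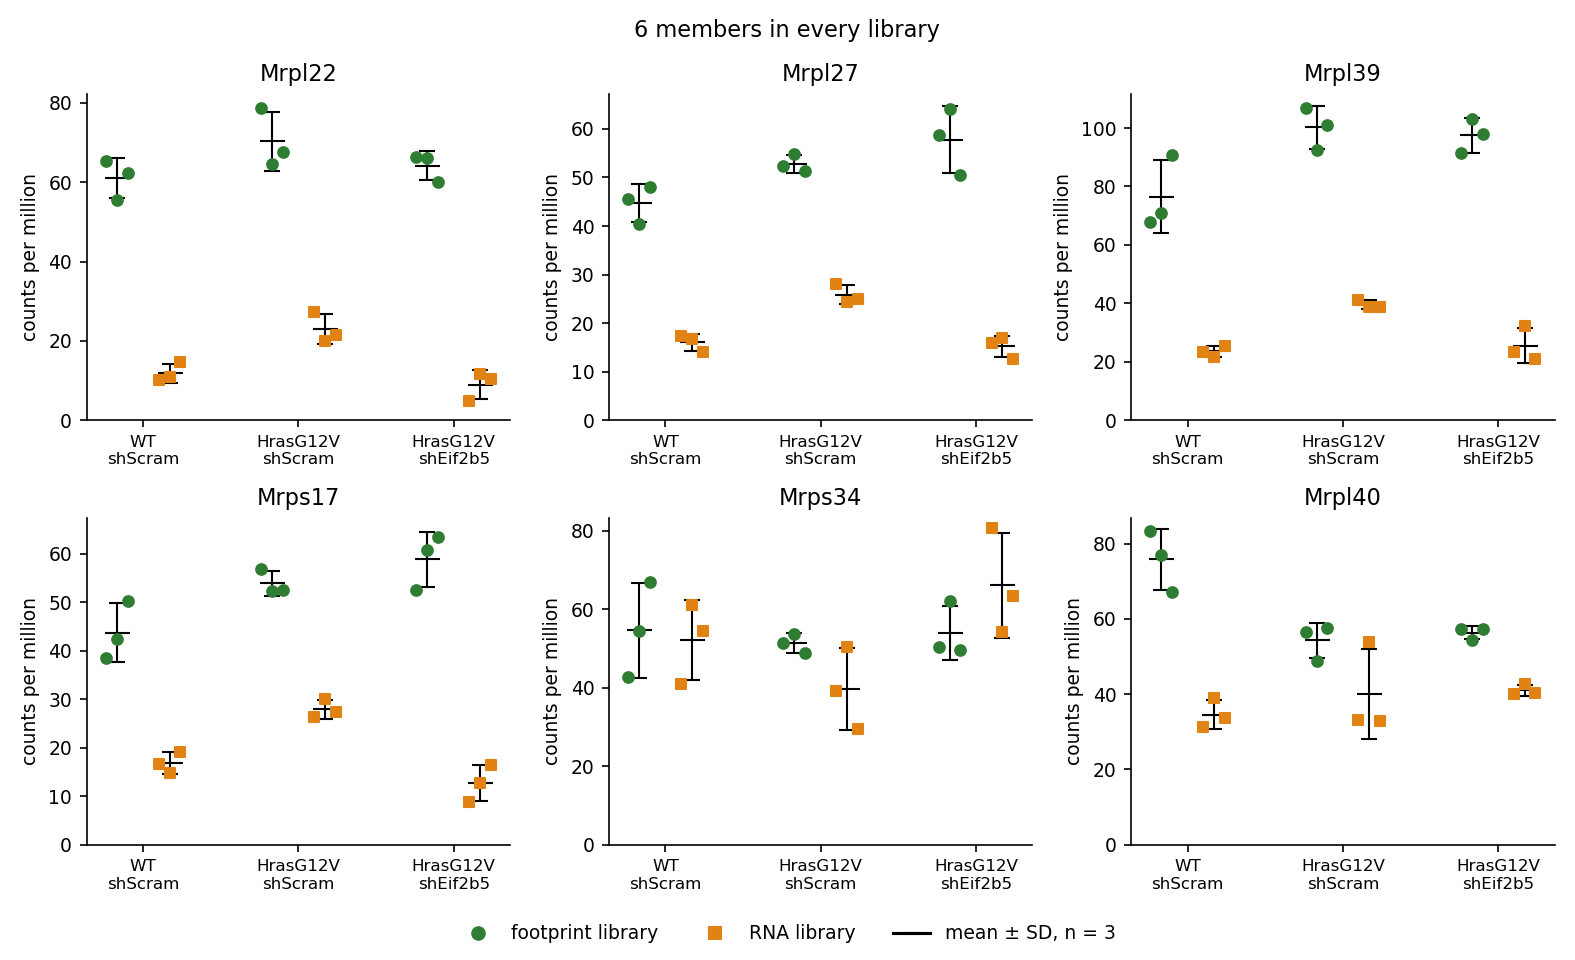
CPM of 6 members in each footprint library (circles) and RNA library (squares), with mean ± SD of 3 libraries per condition. RNA of Mrpl22, Mrpl27, Mrpl39 and Mrps17 is highest in HrasG12V shScram, their footprints overlap between the HrasG12V conditions, and Mrpl40 footprints are lower in both HrasG12V conditions than in WT shScram.

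The number of calls turned on single libraries. It was 22 without RNA library 2 of HrasG12V shScram, 4 without library 1 and 3 without library 3. It was 2 without library 1, and 2 without library 3, of HrasG12V shEif2b5. Calls over all genes moved the same way, from 1444 to 3150, 404, 445, 480 and 197 in these fits. Without libraries 1 and 3 of HrasG12V shScram together, 0 members were called, Mrpl22 gave -1.16 (adjusted p = 0.303) and Mrps17 -1.25 (adjusted p = 0.153), and the median of the members was -0.03.

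The RNA fold change of a member moved with the GC of its coding sequence. In HrasG12V shEif2b5 against HrasG12V shScram, r was 0.46 across the 77 members and 0.54 across 11040 genes, which share the same libraries. The 38 members below the median GC had a median of -0.29 and the 39 others -0.03. Mrpl1 (41.6% GC) was among the lowest and Mrps34 (63.8% GC) among the highest. In HrasG12V shScram against WT shScram, r was -0.46 across members and -0.44 across genes, with medians of 0.33 and 0.05. In footprints r was 0.39 and -0.14 across members in these comparisons, against 0.10 and -0.08 across 11392 genes. Offsets were then used that take out a smooth dependence on coding length and GC in each library. With them r across members was -0.05 and 0.06 in RNA, and 0.20 and 0.01 in footprints. The RNA median of the members was then -0.07 and 0.05. In HrasG12V shEif2b5 against HrasG12V shScram 5 members were called, while calls over all genes fell from 1444 to 630. Mrpl14, Mrpl22, Mrpl27 and Mrps17 were lower and Mrpl52 higher, with adjusted p from 0.0153 to 0.0436, and Mrpl1, Mrpl39, Mrps6, Mrps30 and Mrps34 did not pass. Their log2 fold changes with offsets were -0.47 for Mrpl1, -0.40 for Mrpl39, -0.79 for Mrps6, 0.51 for Mrps30 and 0.40 for Mrps34.

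**Figure D5:**
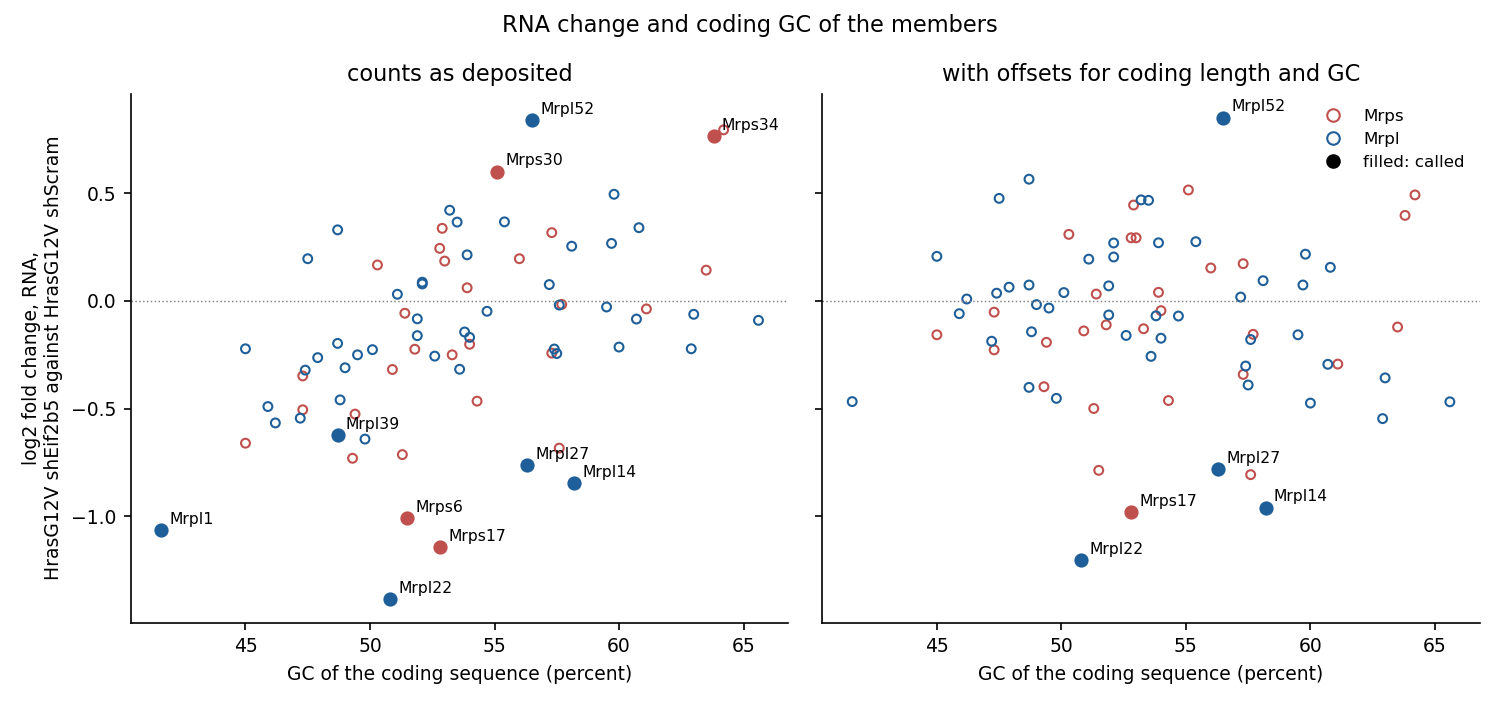
RNA log2 fold change of each member in HrasG12V shEif2b5 against HrasG12V shScram against the GC percent of its coding sequence, from the counts as deposited (left) and with offsets for coding length and GC (right), filled where called. The slope on the left is absent on the right, where 5 of the 10 called members remain and calls over all genes fall from 1444 to 630.

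Summed markers of several cell types also varied in the same RNA libraries. The 6 melanocyte markers summed to 573 to 709 CPM in HrasG12V shScram, 371 to 553 in WT shScram and 441 to 567 in HrasG12V shEif2b5. The 7 basal keratinocyte markers summed to 8570 to 11900, 12700 to 17100 and 13300 to 15500 CPM, and the 6 spinous markers to 34000 to 62600, 64900 to 97900 and 46100 to 59100 CPM. In the same order, the 6 fibroblast markers summed to 518 to 1050, 358 to 2120 and 469 to 565 CPM. The 5 granular markers gave 1730 to 5790, 2130 to 6250 and 2980 to 4700 CPM, and the 6 Merkel cell markers 16.1 to 20.7, 26.8 to 33.0 and 20.9 to 24.0 CPM. Spinous, fibroblast and granular sums overlapped between the HrasG12V conditions. None of these markers was at 0 in a whole group. Their part in the RNA differences of the members was not tested. Globin genes were at 0 in all groups, and immune, endothelial, erythroid and muscle markers each summed to at most 21.6 CPM in an RNA library.

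HrasG12V shEif2b5 against WT shScram called 0 members in RNA by edgeR, against 0.324% of genes, and 0 by DESeq2, which called 64 genes. At an unadjusted p under 0.05, edgeR gave 2 members, where 7.32% of all genes were. The groups did not overlap for 5 members (6.49%), where 16.0% of genes did not. The median was 0.05. The smallest p values were those of Mrps33 (-0.67 ± 0.24, adjusted p = 0.410), Mrpl52 (0.52 ± 0.20, adjusted p = 0.483) and Mrpl3 (0.42 ± 0.20, adjusted p = 0.688). Mrpl22 gave -0.45 ± 0.31 and Mrps17 -0.44 ± 0.24, neither called. The interval lay within 2-fold of no change for 73 of the 77 members, compared with 64 and 60 in the other RNA comparisons.

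Translation efficiency means the footprint fold change divided by the RNA fold change, fitted as an interaction term over all 18 libraries. HrasG12V shEif2b5 against HrasG12V shScram called 3 of 77 members, all higher, which is 3.90% against 1.86% of 11990 genes called and 1.58% called higher. They were Mrps17 (1.26 ± 0.26 (SE), edgeR adjusted p = 0.0169), Mrpl22 (1.25 ± 0.30, adjusted p = 0.0268) and Mrpl27 (0.89 ± 0.23, adjusted p = 0.0407). For each, the value comes mostly from the lower RNA given above, as the footprints moved by 0.13, -0.13 and 0.13. The same 3 were called with offsets for length and GC, where calls over all genes fell from 223 to 94. DESeq2 called 4 members, those 3 and Mrpl52, which was lower, and 399 genes in all where edgeR called 223. Without RNA libraries 1 and 3 of HrasG12V shScram, which leaves 1 RNA library there, Mrps17, Mrpl22 and Mrpl27 gave 1.39, 1.04 and 0.80. Leaving out single libraries moved the count of called members from 0 to 9. It was 0 without footprint library 3 of HrasG12V shScram or of HrasG12V shEif2b5, or RNA library 1 of HrasG12V shEif2b5. It was 1 without footprint library 2 or RNA library 1 or 3 of HrasG12V shScram, or RNA library 3 of HrasG12V shEif2b5. It was 9 without RNA library 2 of HrasG12V shScram. Calls over all genes moved the same way, from 223 to 16, 24 and 48, to 30, 42, 26 and 7, and to 1272, in this order.

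HrasG12V shScram against WT shScram called 0 members for translation efficiency by edgeR, against 1.00% of genes, and 0 by DESeq2, which called 245 genes. At an unadjusted p under 0.05, edgeR gave 14 members, where 14.7% of all genes were. The median was -0.14 against -0.02 for all genes, and 25 of 77 were above 0. The smallest p values were those of Mrpl42 (-0.90 ± 0.29, adjusted p = 0.120), Mrps11 (-1.18 ± 0.40, adjusted p = 0.150) and Mrpl45 (-0.68 ± 0.24, adjusted p = 0.170). Mrpl45 encodes the protein that holds the ribosome at the inner membrane. Leaving out RNA library 2 of HrasG12V shScram gave 5 calls, and leaving out footprint library 3 of WT shScram gave 2. Calls over all genes rose from 120 to 631 and 363 in these fits. HrasG12V shEif2b5 against WT shScram called 0 members with edgeR and with DESeq2. Over all genes edgeR called 0% and DESeq2 4 genes. At an unadjusted p under 0.05, edgeR gave 4 members, where 5.55% of all genes were. Mrps17 gave 0.87 ± 0.26 (adjusted p = 0.734), Mrpl40 -0.68 ± 0.23 (adjusted p = 0.846) and Mrpl52 -0.54 ± 0.23 (adjusted p = 0.874).

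Subunit medians lay close together in footprints and RNA. The Mrpl median minus the Mrps median was -0.04, -0.01 and -0.03 in footprints and 0.11, 0.04 and 0.01 in RNA, in the order HrasG12V shScram against WT shScram, HrasG12V shEif2b5 against HrasG12V shScram and HrasG12V shEif2b5 against WT shScram. For translation efficiency the difference was -0.085, -0.046 and -0.105 in the same order. The value of a single library varied within groups with an SD of 0.11 in footprints and 0.05 in RNA. The differences compare groups of 3 libraries, so this SD is not their error. The RNA value of 0.11 fell to 0.05 with Mrps18a and Mrps30 counted as large subunit and Mrps36 left out, and it was -0.03 without RNA library 3 of HrasG12V shScram. The 45 members with bacterial counterparts had RNA medians of 0.22 and -0.22 in the first 2 comparisons, and the 30 mitochondria-specific ones 0.08 and -0.06. In footprints these classes had medians of 0.02 and 0.02 in the first comparison and -0.05 and -0.01 in the second.

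Of the genes chosen as examples of single roles, only Mrps30 was called, in RNA as given above. Mrps12 gave -0.20 ± 0.16, 0.24 ± 0.16 and 0.04 ± 0.16 in footprints over the 3 comparisons, and 0.06, 0.14 and 0.20 in RNA. Mrps2, a small-subunit protein with a bacterial counterpart, gave -0.10, 0.05 and -0.05 in footprints and -0.21, 0.32 and 0.11 in RNA. Mrpl12 gave -0.29 ± 0.22, 0.23 ± 0.22 and -0.07 ± 0.22 in footprints. Its WT shScram footprint libraries were 59.4, 70.3 and 32.8 CPM, the last being library 3. Mrpl3 gave 0.21, -0.15 and 0.07 in footprints. Mrps18a, Mrps18b and Mrps18c gave 0.33, -0.02 and 0.37 in footprints of HrasG12V shScram against WT shScram, none called. In RNA of HrasG12V shEif2b5 against HrasG12V shScram they gave 0.20, -0.47 and -0.66, the last with an adjusted p of 0.0651. Mrps36 gave 0.81 ± 0.36 and -0.73 ± 0.37 in RNA of the first 2 comparisons, not called, and -0.12 and 0.16 in footprints.

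The changes of members and head-to-head partners were weakly related. Over 28 pairs with both genes tested in RNA, the log2 fold changes of the members and their partners correlated at r = 0.14 in HrasG12V shScram against WT shScram and 0.28 in HrasG12V shEif2b5 against HrasG12V shScram, with the same sign in 10 and 15 pairs. Over 29 pairs in footprints r was 0.02 and 0.22. Mrps11 and Mrpl46 gave 0.78 and -0.08 in RNA of the first comparison. Mrpl32 and Psma2, a proteasome subunit, gave -0.54 and -1.14 in RNA of the second.

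Other proteins of mitochondrial translation were not called in footprints either. Of 6 mitoribosomal proteins with other symbols, 25 assembly factors, 15 translation factors and 20 mitochondrial tRNA synthetases, 0 were called in footprints in any comparison by edgeR. Of 11 genes for expression of mitochondrial DNA, 10 were tested and 0 called. The medians of these lists in footprints lay between -0.12 and 0.12. In RNA, Ssbp1, the mitochondrial single-strand binding protein, and Tfb2m, a mitochondrial transcription factor, rose in HrasG12V shScram against WT shScram (0.95 ± 0.24 (SE), adjusted p = 0.0234; 0.72 ± 0.20, adjusted p = 0.0351). Both fell in HrasG12V shEif2b5 against HrasG12V shScram (-1.10 ± 0.25, adjusted p = 0.0111; -0.93 ± 0.20, adjusted p = 0.0102). Of the 8 genes of this list tested in RNA, 4 were above 0 in the first comparison (median 0.00) and 5 in the second (median 0.18). The second comparison called Fastkd2, a factor of large-subunit assembly, lower (-0.75 ± 0.23, adjusted p = 0.0436) and Vars2, the mitochondrial valyl-tRNA synthetase, higher (0.59 ± 0.16, adjusted p = 0.0265). The table held 0 mitochondrially encoded genes, so the products of the mitochondrial ribosome were not analysed here.

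In footprints, cytosolic ribosomal proteins had a median of 0.15 in HrasG12V shScram against WT shScram, with 64 of 77 tested above 0. Rpl10 (0.54 ± 0.13, edgeR adjusted p = 0.0305) and Rps29 (0.53 ± 0.13, adjusted p = 0.0327) were the 2 called higher. In HrasG12V shEif2b5 against WT shScram their footprint median was 0.17, with 3 called higher. The members had 40 of 77 above 0 in both comparisons. Complex I subunits had a footprint median of 0.11 and 28 of 37 above 0 in the first comparison, with 0 called. In RNA, complex I had medians of 0.18 and -0.20 in the first 2 comparisons, close to the 0.17 and -0.17 of the members, with 5 and 8 of 37 called. Cytosolic ribosomal proteins had RNA medians of 0.065 and 0.057 in these 2 comparisons. Of the 77 tested, 5 were called higher in the first, and 5 higher and 7 lower in the second. Among all genes, 7.70% and 13.0% were called in RNA in these 2 comparisons. Whether the medians of these sets differ was not tested.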

How the data were processed

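The authors deposited whole-number counts for each gene's coding sequence, without normalisation. Bowtie, TopHat2, HTSeq and mm10 are named in the submitters' processing notes, and versions and strand setting are not given in the sources used here. All 18 columns were used. Of 20655 rows, 19889 matched a GENCODE gene by symbol and 612 by synonym. Genes passing filterByExpr (minimum count 10, minimum total 15) were tested with edgeR 4.0.16 in R 4.3.3 (TMM within each library kind, robust quasi-likelihood; 9 libraries per kind, or all 18 for the interaction), tested on simulated data. Benjamini-Hochberg adjustment ran over all genes of a comparison, and a call is an adjusted p under 0.05. Standard errors come from the model's information matrix, and n is 3 libraries per group.

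Chi-square per degree of freedom between replicate libraries was 3.35 to 21.08, so none was a copy. Members and gene lists were chosen with earlier results of these data known. Members are named if called (at most 12 per comparison), among the 3 smallest p values where fewer than 3 were called, among the 4 highest or lowest levels or ratios, or as 9 fixed examples. Mrps16, Mrps26 in the fits without a library, and the divergent partners were chosen after their values were seen. Alternatives were DESeq2 1.42.0 factors or Wald test, upper-quartile factors, 2 other filters, leaving out the 20 most abundant genes or each library, a replicate block, and offsets for coding length and GC (splines with 4 degrees of freedom). Leaving out RNA libraries 1 and 3 of HrasG12V shScram together was chosen after seeing the data.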

Additional observations from a re-analysis of the deposited data

How the results depend on the processing

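Counts of called members, their median log2 fold change and the Mrpl minus Mrps median were recomputed under each alternative. These fits used edgeR, except the DESeq2 Wald test. Other scaling, filters, the 20 most abundant genes left out and DESeq2 kept each count of called members within 1.5 times. DESeq2 called 2 and 8 members in RNA where edgeR called 3 and 10. Over all genes it called 854 and 1382 there, and edgeR 854 and 1444. The filter at a mean of 10 CPM turned the RNA Mrpl minus Mrps median of HrasG12V shEif2b5 against HrasG12V shScram from 0.036 to -0.036. Offsets for coding length and GC gave 1 call (Mrpl40) and a median of -0.041 in footprints of HrasG12V shScram against WT shScram, and a footprint median of 0.019 in HrasG12V shEif2b5 against HrasG12V shScram. In RNA they gave 0 calls, a median of 0.052 and a subunit difference of 0.036 in the first of these comparisons. In the other they gave 5 calls with a median of -0.065. Calls over all genes moved from 195 to 214 in footprints of the first, and in RNA from 854 to 410 and from 1444 to 630. Grouping subunits by structure gave 0.05 for the RNA subunit difference of HrasG12V shScram against WT shScram.

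Without RNA libraries 1 and 3 of HrasG12V shScram, chosen after seeing the data, 0 members were called in RNA in both comparisons that use them, with medians of 0.085 and -0.026 and, in HrasG12V shEif2b5 against HrasG12V shScram, a subunit difference of 0.126. For translation efficiency the median was 0.025 in that comparison and -0.069 in HrasG12V shScram against WT shScram. The cause of these shifts was not tested.

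Leaving out 1 library at a time gave 0 to 9 calls in footprints of HrasG12V shScram against WT shScram. In HrasG12V shEif2b5 against WT shScram it gave 0 to 7. The highest counts of members in this paragraph came with more calls over all genes, as given above. In RNA of HrasG12V shScram against WT shScram, calls ran from 0 to 13, medians from 0.127 to 0.194 and subunit differences from -0.028 to 0.108. In HrasG12V shEif2b5 against HrasG12V shScram they ran from 2 to 22, -0.166 to -0.104 and -0.034 to 0.033, and in HrasG12V shEif2b5 against WT shScram the RNA subunit difference ran from -0.049 to 0.067. For translation efficiency, HrasG12V shScram against WT shScram gave 0 to 5 calls and subunit differences of -0.251 to -0.027, HrasG12V shEif2b5 against HrasG12V shScram 0 to 9 calls and medians of 0.059 to 0.129, and HrasG12V shEif2b5 against WT shScram medians of -0.110 to -0.019.

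Libraries with the same replicate number were not paired by any label, and their deviations from the group means correlated above 0.1 in 10 of 27 pairs (-0.40 to 0.39). With the replicate block, calls of members moved from 3 to 2 and from 10 to 8 in RNA. They moved from 3 to 4 for translation efficiency in HrasG12V shEif2b5 against HrasG12V shScram, and stayed at 0 in the other comparisons. Calls over all genes moved from 854 to 648, from 1444 to 1226 and from 223 to 361 in these fits. Counts per member were 42 to 766 in footprints (median 226) and 11 to 611 in RNA (median 91), so RNA values of low members rest on few counts. Mrps6, Mrpl1 and Mrpl22 are among these, and Mrpl22 had 4.81 CPM in RNA library 1 of HrasG12V shEif2b5.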
